A study of Mus musculus with 9 samples.

Results

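Mouse oocytes that had been frozen in a straw with nanoparticles were compared with fresh oocytes, gene by gene, by poly(A) RNA sequencing. The comparison rests on 6 of the study's 9 libraries, namely the 3 of the group labelled cryopreservation-2 and the 3 fresh ones, and it covers all genes rather than a chosen subset. Straw freezing used EG at 17.5% and trehalose at 1 M together with nanoparticles labelled PVA/Fe3O4/GO, and fresh oocytes were not frozen. The other 3 libraries, cryopreservation-1, came from oocytes frozen on a cryotop with EG and DMSO (15% each) and sucrose (0.5 M). They entered the fit and are given beside single genes. Carrier, solutes and nanoparticles changed together, so their parts in any difference cannot be told apart. The labels call every sample an oocyte and give no stage, strain, age or number of cells, and nothing in them ties a replicate to an animal or culture of its own. P-values therefore measure only the spread between these libraries, which may be technical.

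A fully grown oocyte makes almost no new RNA and lives on stored maternal transcripts. Many of these are kept with short poly(A) tails until meiotic maturation, when some are lengthened and translated and others are shortened and destroyed. The cytoplasmic polyadenylation element, a short U-rich stretch near the end of the 3′ untranslated region (3′ UTR), takes part in that choice, and the protein Cpeb1 acts on it. Freezing exposes the cell to cold, concentrated solutes and osmotic shrinkage, and it is known to affect the spindle, mitochondria and oxidant balance of oocytes. A library selected on poly(A) measures tailed RNA, so less RNA and shorter tails cannot be told apart in these values, nor can fewer cells and less RNA per cell.

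The cryopreservation-2 libraries were smaller and set apart from the rest. Their total counts lay between 49337232 and 51369012, against 73899130 to 80100460 in fresh libraries (exact two-sided permutation p = 0.1, the smallest that 3 against 3 allows). On the first principal component of 8091 genes, with 44.2% of the variance, they lay between 35.5 and 47.9 and the other 6 between -28.3 and -12.7. Replicate 3 of fresh, replicate 3 of cryopreservation-1 and replicate 1 of cryopreservation-2 stood apart from their groups on the second component (21% of the variance). These 3 had 8421 to 9108 genes at 0 counts, against 6351 to 7744 in the other 6. All 40 oocyte identity genes looked for were in the table. Together they took 7.19% to 9.57% of fresh counts and 5.98% to 8.4% of cryopreservation-2 counts.

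Straw-frozen oocytes differed from fresh ones in 944 of 17545 tested genes (5.38%; edgeR quasi-likelihood test, Benjamini-Hochberg adjusted p under 0.05, here a call). Of these, 558 (3.18% of tested genes) were higher and 386 (2.2%) were lower in straw-frozen oocytes. The higher genes had a median fold of 3.11, and their median level went from 8.63 CPM (counts scaled to library size, here with TMM factors) in fresh to 29 CPM. The lower genes had a median fold of 2.31 and went from 53.6 to 24.8 CPM. Of the higher genes 172 changed over 4-fold, and of the lower genes 74. The straw-frozen and fresh groups did not overlap in CPM in 557 of the 558 higher and 385 of the 386 lower genes. Over all tested genes, 15.1% were higher without overlap and 12.4% lower without overlap. Absence of overlap is therefore no separate support for a called gene. The higher genes together took 1.72% to 1.94% of the counts in fresh libraries, 2.18% to 2.84% in cryopreservation-1 and 5.54% to 5.79% in cryopreservation-2. For the lower genes these ranges were 6.77% to 7.02%, 6.28% to 6.97% and 3.74% to 4.27%. Straw-frozen libraries thus lay outside the range of the other groups in both sums, but the genes were chosen on the same libraries, so these sums are a description. Between 231 and 786 genes were called when 1 of the 9 libraries was left out. The lowest counts were 231 without fresh replicate 3, 282 without cryopreservation-2 replicate 3, 365 without cryopreservation-2 replicate 2 and 398 without fresh replicate 1. Leaving out fresh replicate 2 gave 594, and leaving out cryopreservation-1 replicates 1 and 2 gave 491 and 511. Without the 3 libraries that stood apart, 194 genes were called, 146 higher (0.805% of those tested) and 48 lower.

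**Figure D1:**
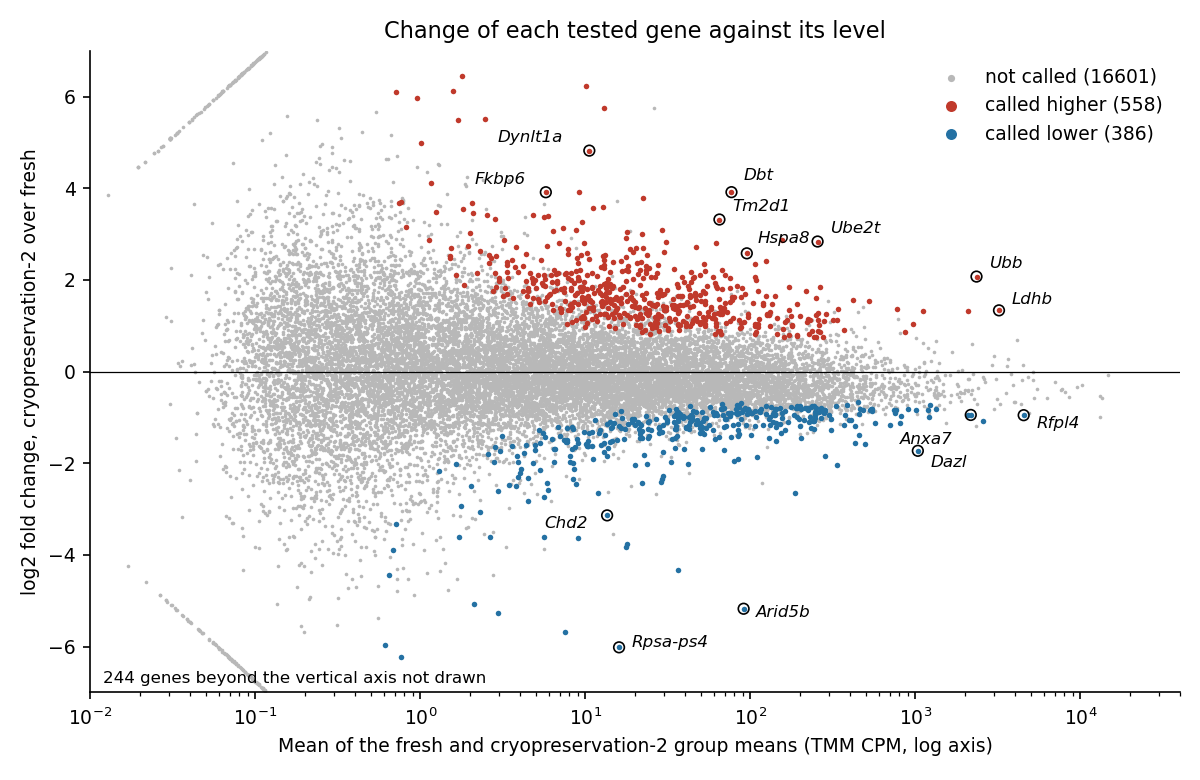
Log2 fold change of each tested gene (vertical axis, cryopreservation-2 over fresh) against the mean of the 2 group means in TMM-scaled CPM (horizontal log axis). Grey points were not called; the 558 red genes were higher and the 386 blue genes lower in cryopreservation-2, and circled genes are described in the text.

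A gene's result is called stable here where it kept its call under every alternative analysis that could test it, up to 22, including each fit with 1 library left out. Of the 196 called genes that the naming rule covers, 51 were stable and none changed direction under any of these alternatives. Where values of a gene are given below, it was stable unless the text gives a number of alternatives or a fit in which the call was lost. Beside them stands the adjusted p of cryopreservation-2 against cryopreservation-1, a contrast that uses the same straw-frozen libraries and is therefore not a separate line of evidence. That contrast called 483 genes (2.75% of 17545), 263 higher (1.5%) and 220 lower. Its count depended more on single libraries, with 15 called without cryopreservation-1 replicate 1 and 16 without cryopreservation-1 replicate 3.

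Called genes differed in transcript length. Transcripts of higher genes had a median of 1588 bases, those of lower genes 3028 and all tested genes 2548. Coding stretches had medians of 795, 1422 and 1362 bases in the same order, and 3′ UTRs of 476.5, 1377 and 1068 bases. Among tested genes in the shortest quintile by transcript length (38 to 1169 bases), 5.42% were called higher and 0.713% lower. In the longest quintile (4589 to 123179 bases) these shares were 1.23% and 2.31%. The median log2 fold change was 0.39 in the shortest quintile and -0.23 in the longest, against -0.06 over all tested genes. With offsets for GC content and length, 1411 genes were called (8.04%), 689 higher (3.93% of tested genes) and 722 lower (4.12%), so the share of calls that were higher went from 59.1% to 48.8%.

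**Figure D2:**
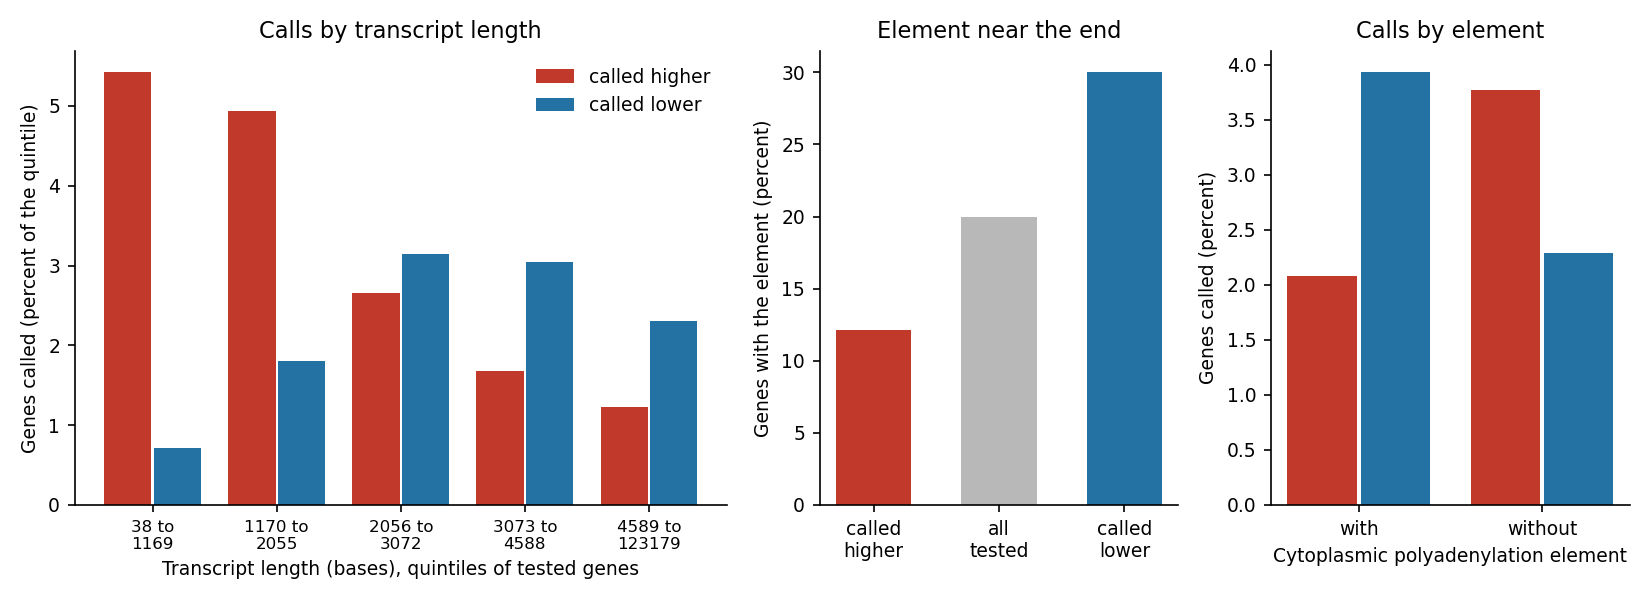
Left, percent of tested genes called higher (red) or lower (blue) in cryopreservation-2 by quintile of transcript length in bases. Middle, percent of genes whose last 100 bases of 3′ UTR hold a cytoplasmic polyadenylation element, 12.1% of called higher, 20% of all tested and 30% of called lower genes. Right, percent of genes with or without the element that were called higher or lower.

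The polyadenylation element was more frequent among lower genes and less frequent among higher genes. It was searched as TTTTAT or TTTTAAT on the transcript's strand, in the last 100 bases of 3′ UTRs of at least 100 bases. It was found in 100 of 333 lower genes (30%), 53 of 437 higher genes (12.1%) and 2546 of 12719 tested genes (20%). The share among lower genes exceeded that among higher genes in each of the 4 longer quintiles of transcript length, at 37.5% against 13.4%, 29.3% against 9.52%, 35.3% against 17.5% and 19.8% against 17.1%. Only 3 lower genes of the shortest quintile could be searched. In the longest quintile the share among lower genes was below the 22% of all tested genes there. Among genes of at least 20 CPM in a group, the order turned in the longest quintile, where 17.5% of 40 lower genes, 20% of 20 higher genes and 25% of all held the element. By coding length, the longest quintile of those genes gave 6.67% of lower and 9.52% of higher genes. Read the other way, 3.93% of genes with the element were called lower and 2.08% higher, against 2.29% and 3.77% of genes without it. Among genes of at least 20 CPM in a group, 6.62% of those with the element were lower and 2.98% higher, against 4.78% and 6.97% without it. Base composition moved with the element, since the last 100 bases had a median GC content of 32% in lower, 36% in higher and 35% in all tested genes, and the part of composition was not tested. A match to these letters is a description of the sequence, and binding was not measured.

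The windows below show the element (capitals) in its place near the 3′ end of 5 lower and 4 higher genes, to show that it occurs in both sets. Each is written 5′ to 3′ as DNA from GENCODE transcripts on GRCm38, lies in 1 exon of the 3′ UTR, and ends within the last 100 bases. The lower genes come first. Where a window holds more than 1 copy, as in Rassf3, only the copy nearest the 3′ end is in capitals.
Rfpl4 (chr7:5109910-5109939, minus strand): gaatgctttcctTTTTATttgctataatat
Oog1 (chr12:87608779-87608808, plus strand): atagaagcaccaTTTTATgagactggccca
Cdk2 (chr10:128698021-128698050, minus strand): agaaaatatttcTTTTATgattttcttctc
Rassf3 (chr10:121410426-121410455, minus strand): tttaagttttatTTTTATagggcagatttt
Stx7 (chr10:24190136-24190165, plus strand): catgaaactgacTTTTATtgacaatattta
Dbt (chr3:116549889-116549918, plus strand): atgtatctactaTTTTATaatttgattttt
Tm2d1 (chr4:98355389-98355418, minus strand): gtcacttgtcatTTTTATttgtgaaaaata
Snrnp40 (chr4:130389918-130389947, plus strand): atttgttttctgTTTTATttttaaattgaa
Ube2t (chr1:134974081-134974110, plus strand): aaggatagtttgTTTTATttatcttgtaca

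Among genes of at least 20 CPM in the higher group, the largest rises were those of Dynlt1a, Dbt and Abt1. Dbt encodes the E2 core of the branched-chain keto acid dehydrogenase, which commits leucine, isoleucine and valine to breakdown in mitochondria (ENSMUSG00000000340, chr3:116513070-116549981, plus strand, GRCm38). Its level was 12.8, 8.33 and 7.47 CPM in fresh replicates 1 to 3, 11.2, 10.2 and 8.82 in cryopreservation-1 and 255, 70.6 and 106 in cryopreservation-2. Every straw-frozen library lay above all other 6, with replicate 1 the highest, and the log2 fold change against fresh was 3.92 (SE 0.47, adjusted p = 0.00511; against cryopreservation-1 0.00831). Bcat2, the mitochondrial aminotransferase that precedes this step, went the other way, with 20.1, 54.7 and 21.2 CPM in fresh and 7.95, 7.86 and 7.38 in straw-frozen libraries. It was 4.14-fold lower (adjusted p = 0.019), called under 18 of 22 alternatives and lost without cryopreservation-2 replicate 2 or 3 (adjusted p 0.0582 to 0.0668).

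Tm2d1, a membrane protein that binds amyloid-beta peptide, stood at 11.1, 16.7 and 7.52 CPM in fresh, 9.41, 14.1 and 8.03 in cryopreservation-1 and 129, 109 and 115 in cryopreservation-2 libraries (ENSMUSG00000028563, chr4:98355370-98383306, minus strand). The straw-frozen values were close to each other and far from the other 6, a 9.98-fold rise (log2 3.32, SE 0.34, adjusted p = 0.00331; against cryopreservation-1 0.00383). Trim15, a ubiquitin ligase of the tripartite motif family, read 2, 1.77 and 2.1 CPM in fresh and 30.4, 15.9 and 24.3 in straw-frozen libraries, 12-fold higher (adjusted p = 0.00331; 0.00383 against cryopreservation-1). Abt1, a basal transcription activator, read 3.73, 3.94 and 1.47 CPM in fresh and 32.1, 38.5 and 54.9 in straw-frozen libraries, 13.7-fold higher (adjusted p = 0.00611; 0.0186 against cryopreservation-1). In neither gene did the groups overlap.

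Snrnp70 and Ube2t rose as well. Snrnp70, the 70 kDa protein of the U1 splicing particle, stood at 33.4, 25.9 and 53.7 CPM in fresh, 128, 64.3 and 108 in cryopreservation-1 and 184, 330 and 312 in cryopreservation-2 libraries. Its cryotop values lay between the other groups: it was 7.3-fold above fresh (adjusted p = 0.00604) but not called against cryopreservation-1 (adjusted p = 0.0563). Ube2t, the ubiquitin-conjugating enzyme of the Fanconi anaemia pathway, read 31, 114 and 42.8 CPM in fresh and 428, 463 and 452 CPM in straw-frozen libraries. Fresh replicate 2 was the highest of its group, and all straw-frozen values were well above it (7.15-fold, adjusted p = 0.0105; 0.0268 against cryopreservation-1; called under 21 of 22 alternatives, lost without the 3 libraries that stood apart, adjusted p = 0.0708). H2-T22, a nonclassical class I histocompatibility gene, was 7.53-fold higher (adjusted p = 0.0313) at 32.3, 37.9 and 23.6 CPM against 4.58, 0.676 and 7.19 in fresh and 9.55, 11.7 and 12.4 in cryopreservation-1. It was not called against cryopreservation-1 (adjusted p = 0.218), was called under 11 of 22 alternatives, and was lost without fresh replicate 1, cryopreservation-1 replicate 1, 2 or 3 or cryopreservation-2 replicate 1, 2 or 3 (adjusted p 0.0516 to 0.0868).

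The Dynlt1 genes of chromosome 17, near-identical copies that encode a light chain of cytoplasmic dynein, were called higher as a set of 4, including a processed copy. Dynlt1a went from 0.658, 1.19 and 0.31 to 28.1, 17.8 and 15.3 CPM (28.3-fold, adjusted p = 0.00546), Dynlt1b rose 8.57-fold, Dynlt1c 7.97-fold and Dynlt1-ps1 8.23-fold. Reads shared between these copies can be split in more than 1 way, so their separate values are uncertain. The largest fold among the falls, that of Rpsa-ps4 (64.7-fold lower, from 8.57, 48.2 and 37.7 to 0.287, 0.492 and 0.667 CPM), belongs to a ribosomal protein pseudogene and is uncertain for the same reason.

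The deepest fall of a protein-coding gene at this level was that of Arid5b, which brings a histone demethylase to DNA. Arid5b read 138, 286 and 106 CPM in fresh, 231, 182 and 164 in cryopreservation-1 and 5.69, 4.47 and 4.53 in cryopreservation-2 libraries (ENSMUSG00000019947, chr10:68092520-68278740, minus strand). Cryotop values lay within the fresh range, and straw-frozen values were lower than all 6 (36.1-fold, log2 -5.17, SE 0.40, adjusted p = 0.00166; 0.00139 against cryopreservation-1). Of the 14 tested members of the Arid family it was the 1 called, and the family's median log2 fold change was -0.21. Chd2, a chromodomain helicase that remodels nucleosomes, fell 8.8-fold, with 17.6, 32.2 and 23.2 CPM in fresh, 23.4, 31.2 and 29.6 in cryopreservation-1 and 3.45, 2.92 and 1.93 in cryopreservation-2 libraries (adjusted p = 0.00331; 0.00383 against cryopreservation-1). Its cryotop values overlapped the fresh ones, and its straw-frozen values lay below both groups.

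Other large falls were of genes of unlike roles. Gprc5c, an orphan G protein-coupled receptor, read 40.3, 30.1 and 28.2 CPM in fresh and 0.479, 3.01 and 3.45 in straw-frozen libraries (14.2-fold, adjusted p = 0.00916). Rassf3, a member of the Ras association domain family, read 24.5, 16.4 and 20.8 in fresh, 40.9, 29.5 and 35.1 in cryopreservation-1 and 2.2, 3.67 and 4.02 in cryopreservation-2 libraries. Its cryotop values were above all fresh ones and its straw-frozen values below them (6.24-fold lower than fresh, adjusted p = 0.00466; 0.00383 against cryopreservation-1). Focad, a focal adhesion protein, fell 5.43-fold (adjusted p = 0.00611). Lrrc31 and Frk, an Src-related kinase, were 13.6-fold and 5.32-fold lower (adjusted p = 0.00611 and 0.0131), each called in all but the fit (adjusted p = 0.0588 and 0.0813) without the 3 libraries that stood apart. Hid1 and Arsb, the lysosomal arylsulfatase B, were 5.1-fold and 4.88-fold lower (adjusted p = 0.0149 and 0.0309, called under 19 of 22 and 13 of 22 alternatives). Hid1 was lost without cryopreservation-2 replicate 3 (adjusted p 0.0702), and Arsb was lost without fresh replicate 1, 2 or 3, cryopreservation-1 replicate 2 or cryopreservation-2 replicate 2 or 3 (adjusted p 0.0557 to 0.0993).

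**Figure D3:**
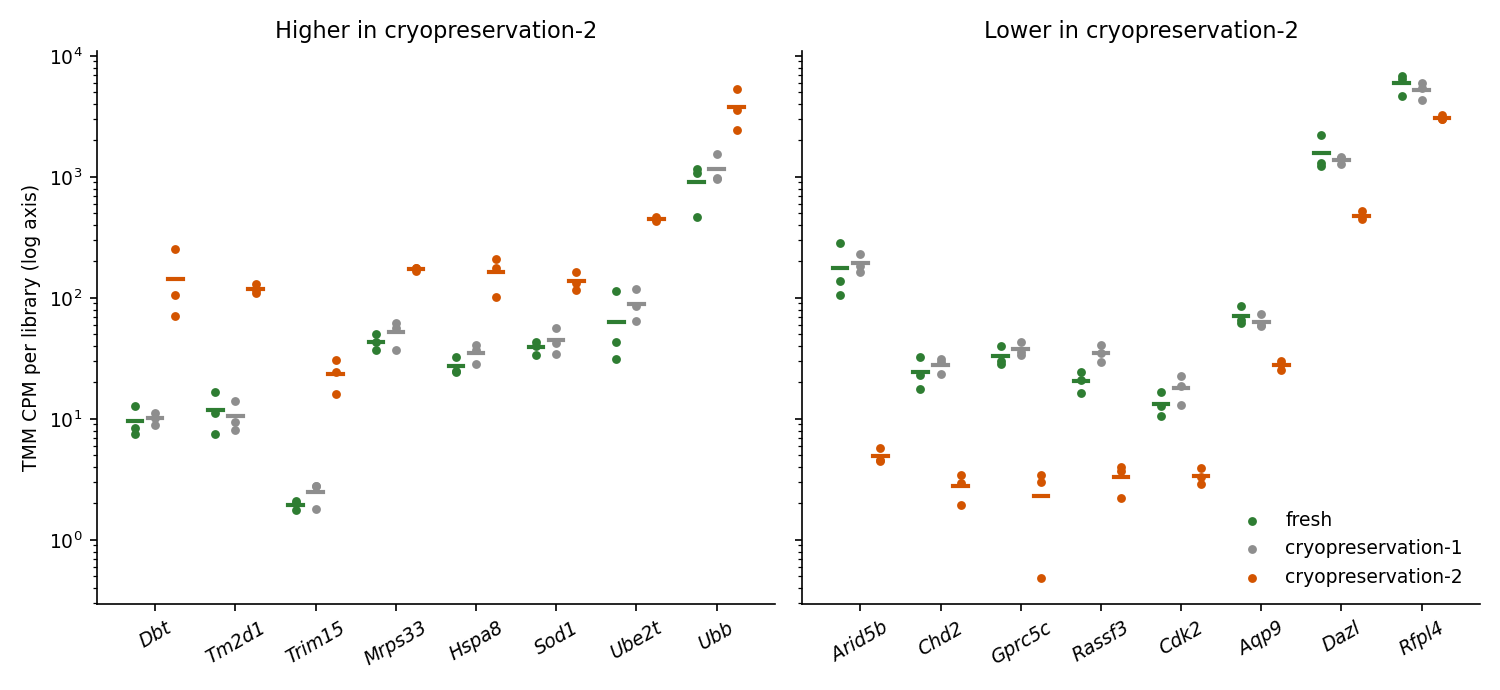
TMM-scaled CPM of 16 called genes in each of the 9 libraries (log axis); points are libraries, bars are group means, and colours are the 3 groups. In every gene shown, the 3 cryopreservation-2 points lie wholly above (left panel) or below (right panel) the fresh points. The groups likewise do not overlap in 557 of the 558 higher and 385 of the 386 lower calls.

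The called genes with the most counts were looked at separately. Ubb, a polyubiquitin gene, had 466, 1080 and 1160 CPM in fresh, 959, 1540 and 970 in cryopreservation-1 and 5320, 3590 and 2460 in cryopreservation-2 libraries. All straw-frozen values exceeded the other 6 (4.21-fold over fresh, adjusted p = 0.019; 0.0467 against cryopreservation-1; 20 of 22 alternatives, lost without the 3 libraries that stood apart, adjusted p = 0.0694). Ldhb, the heart-type lactate dehydrogenase that oocytes use to feed on lactate, read 1240, 1890 and 2340 CPM in fresh, 1620, 3870 and 2600 in cryopreservation-1 and 5800, 3970 and 4040 in straw-frozen libraries. One cryotop library came near the straw-frozen values, and Ldhb was not called against cryopreservation-1 (adjusted p = 0.239). Against fresh it was 2.53-fold higher (adjusted p = 0.047), called under 9 of 22 alternatives and lost without fresh replicate 1, 2 or 3, cryopreservation-1 replicate 3 or cryopreservation-2 replicate 1, 2 or 3 (adjusted p 0.0731 to 0.129). Sub1, a transcription coactivator, Fbxw15, an oocyte F-box protein, and mt-Rnr2, the large mitochondrial ribosomal RNA, were 2.51-fold, 2.89-fold and 2.07-fold higher (adjusted p = 0.0225, 0.0157 and 0.0332). They were called under 18 of 22, 19 of 22 and 12 of 22 alternatives, and the first was lost without fresh replicate 1 or 3 or cryopreservation-2 replicate 3 (adjusted p 0.0548 to 0.0822). Fbxw15 was lost without fresh replicate 1 or 3 (adjusted p 0.0543 to 0.0626), and mt-Rnr2 was lost without fresh replicate 1, 2 or 3, cryopreservation-1 replicate 3 or cryopreservation-2 replicate 2 or 3 (adjusted p 0.0513 to 0.105).

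Of the called lower genes with the most counts, Dazl was stable. Dazl is a germ cell RNA-binding protein that acts on stored messages, and it read 1230, 2220 and 1310 CPM in fresh, 1430, 1270 and 1450 in cryopreservation-1 and 471, 447 and 519 in cryopreservation-2 libraries. Fresh replicate 2 stood high in its group, cryotop values lay in the fresh range, and straw-frozen values fell below all of them (3.31-fold, log2 -1.73, SE 0.24, adjusted p = 0.00611; 0.0138 against cryopreservation-1). Rfpl4, an oocyte ubiquitin ligase of the RING finger type, read 6380, 6830 and 4680 CPM in fresh, 5930, 4310 and 5460 in cryopreservation-1 and 3020, 3250 and 2990 in straw-frozen libraries. It was 1.93-fold lower (adjusted p = 0.0244; 0.0657 against cryopreservation-1), called under 15 of 22 alternatives and lost without fresh replicate 1 or 2 or cryopreservation-2 replicate 2 or 3 (adjusted p 0.0557 to 0.0804). Oog1, the oogenesin gene of oocytes, read 1500, 1590 and 1520 CPM in fresh and 998, 721 and 853 in straw-frozen libraries (1.79-fold lower, adjusted p = 0.0228). The fresh values spanned a narrow range above all straw-frozen ones, but the call stood under 15 of 22 alternatives and was lost without fresh replicate 1 or 3 or cryopreservation-2 replicate 2 or 3 (adjusted p 0.0586 to 0.0686). Anxa7, a calcium-dependent membrane protein, was 1.93-fold lower at 1490, 1610 and 1340 against 2550, 2970 and 3040 CPM (adjusted p = 0.012, 19 of 22 alternatives), and was lost without fresh replicate 3 or cryopreservation-2 replicate 3 (adjusted p 0.0506 to 0.0514). Accsl, Klf17, Klhdc2 and Tm9sf2, the others of that set, kept their calls in at most 5 of the 9 fits that left out a library.

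Some genes had counts in only 1 of the 2 groups. There were 49 genes with 0 counts in every fresh library and at least 10 in every straw-frozen one, of which 17 had 0 also in cryopreservation-1. The largest was Ankrd33b, with 506, 220 and 158 counts in cryopreservation-2 and none in the other 6 libraries. Against a floor of 3 counts over the fresh group this is at least 390-fold higher (adjusted p = 0.00918). Trmu, which thiolates mitochondrial tRNAs, had 85, 188 and 170 counts in straw-frozen and 61, 66 and 114 in cryotop libraries, at least 195-fold above fresh (adjusted p = 0.00559). The reverse held for 41 genes, none of which was at 0 throughout cryopreservation-1. Rhbdf1, an inactive rhomboid protein, had 159, 628 and 254 counts in fresh, 419, 465 and 242 in cryotop and none in straw-frozen libraries, at least 262-fold lower (adjusted p = 0.00511). Trdn, the triadin of calcium release units, had 192, 236 and 170 counts in fresh libraries (at least 151-fold lower, adjusted p = 0.00559). These bounds use TMM-scaled library sizes, take the floor of 3 counts over the 3 libraries of the group at 0, and cover counting error only. Most of these genes were low, with median levels of 0.693 CPM in the straw-frozen and 0.58 CPM in the fresh libraries for the sets found in each.

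Gene groups were compared with the tested genes at large, in which 3.18% were called higher and 2.2% lower. The lists hold genes by role and were written with earlier results of these data known, so their counts describe these libraries and were not tested as groups. As the bars by list show, respiratory complexes, both ribosomes, the proteasome and tubulins held larger shares of higher calls than the tested genes at large. Shares over all tested genes are not matched for level or length. Among genes of at least 20 CPM in a group, 17.2% of the shortest quintile by transcript length were called higher and 2.64% lower. Median fresh levels were 3.55 CPM over all tested genes, 29.5 for the proteasome and 26.6 for tubulins. They were 3.3 for respiratory complexes and 1.46 and 6.46 for cytosolic and mitochondrial ribosomal proteins. At an unadjusted p under 0.05, edgeR placed 11% of tested genes higher and 10.8% lower, and DESeq2 called 8.44% and 7.23%. These counts are given where a list described below had no call, and also for the maturation promoting factor list.

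**Figure D4:**
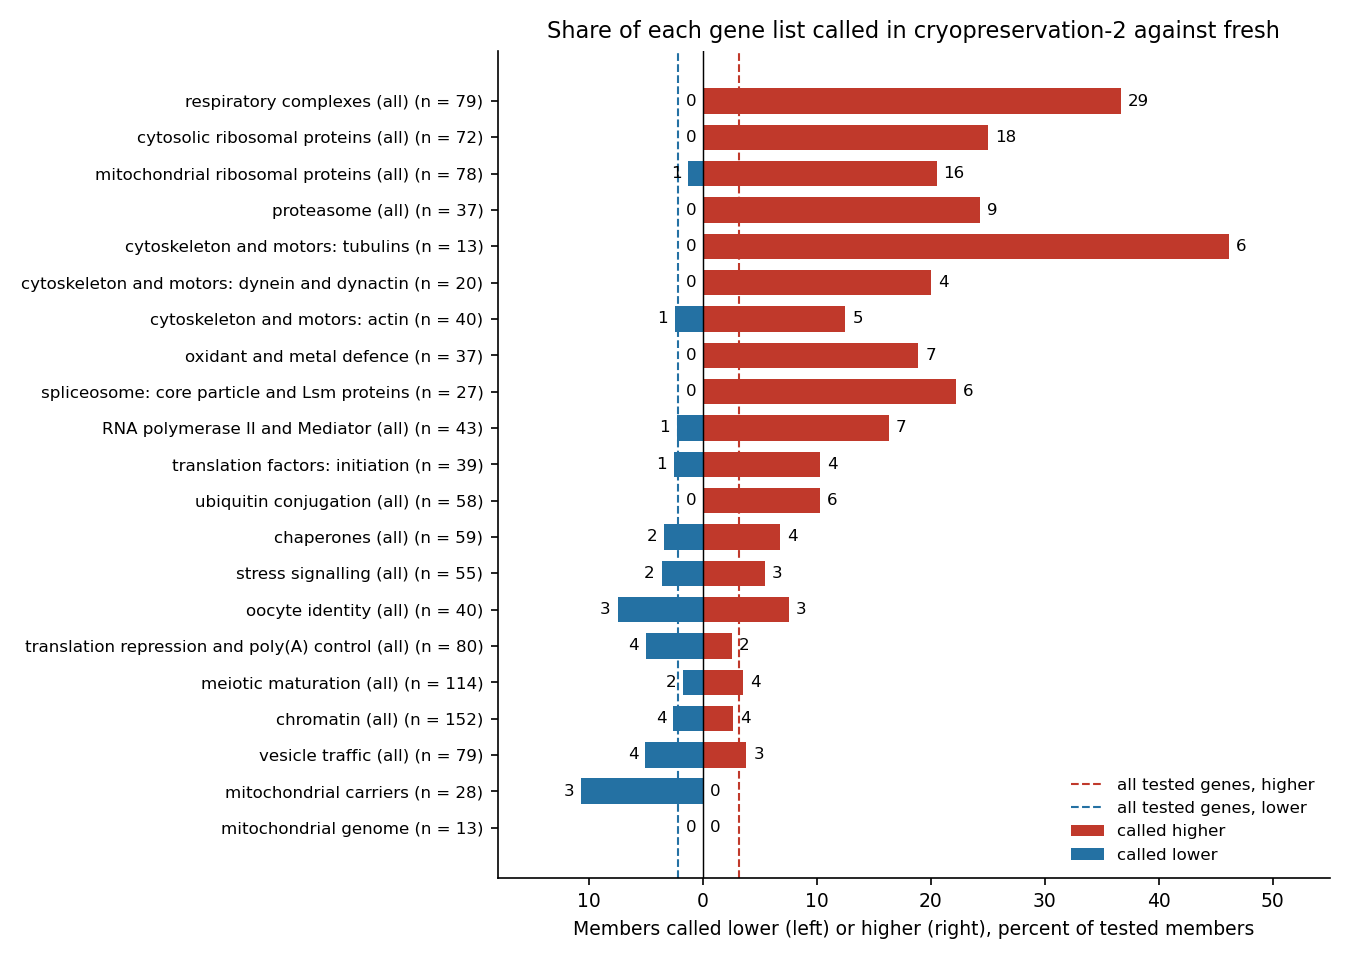
Percent of tested members called higher (red, right) or lower (blue, left) in cryopreservation-2 against fresh, with counts beside the bars; dashed lines mark the shares over all tested genes, 3.18% higher and 2.2% lower. Respiratory complexes held 29 higher calls among 79 members and no lower call.

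Nuclear genes of the respiratory complexes were called higher in 29 of 79 tested members (36.7%) by edgeR and lower in none, with a median log2 fold change of 1.38. Of the 79, 1 was lower at an unadjusted p under 0.05, as by DESeq2, and none by limma. Complex I, the NADH dehydrogenase, held 11 of 37, complex II 2 of 4, complex III 3 of 10, complex IV, the cytochrome c oxidase, 5 of 11, and the ATP synthase 8 of 17. These counts follow the lists, which put Ndufa4 under complex I and Atpif1 under the ATP synthase. Both were called higher, and other groupings may place them elsewhere. The summed counts of the ATP synthase genes overlapped between the groups, at 0.0633% to 0.0748% of fresh and 0.0604% to 0.0758% of straw-frozen counts (exact permutation p = 0.8), while those of the other 4 complexes did not overlap (exact permutation p = 0.1 each). For complex I the gap was small, from 0.0763% in the highest fresh to 0.0768% in the lowest straw-frozen library. Summed length-scaled values (FPKM) of complex IV did overlap, at 255 to 412 in fresh and 290 to 503 in straw-frozen libraries. In complex I, Ndufs5 read 3.95, 4.53 and 4.25 CPM in fresh, 6.49, 6.42 and 3.53 in cryopreservation-1 and 21.9, 20.5 and 19.1 in cryopreservation-2 libraries. The straw-frozen values were close together and above the other 6 (4.84-fold over fresh, adjusted p = 0.00611; 0.0138 against cryopreservation-1). Ndufa1 (9.66-fold), Ndufb4 (10.7-fold) and Ndufb11 (5.66-fold) were also stable, with an adjusted p of 0.00624, 0.00559 and 0.00611. In complex IV, Cox5a read 48.6, 64.3 and 57.6 CPM in fresh, 82.5, 98.9 and 83.6 in cryopreservation-1 and 140, 134 and 134 in cryopreservation-2 libraries. Its cryotop values lay between the groups, so that it was 2.4-fold above fresh (adjusted p = 0.00842) and not called against cryopreservation-1 (adjusted p = 0.0916). Cox4i1 and Cox6c rose 4.64-fold and 3.44-fold (adjusted p = 0.0095 and 0.0109).

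The remaining complexes had fewer stable members. Uqcr10 of complex III, 4.05-fold higher (adjusted p = 0.012), lost its call in the fit without the 3 libraries that stood apart (adjusted p = 0.0588). Sdhc, a membrane anchor of complex II, was 3.09-fold higher (adjusted p = 0.0149) and lost without fresh replicate 1 or 3 (adjusted p 0.0537 to 0.0604). In the ATP synthase, Atp5pb of the peripheral stalk read 17.4, 18.7 and 14.4 CPM in fresh and 45.7, 37.5 and 45.1 in straw-frozen libraries (2.54-fold, adjusted p = 0.0169). Its groups did not overlap, but the call was lost without fresh replicate 1 or 3 or cryopreservation-2 replicate 3 (adjusted p 0.0506 to 0.067). The 3 genes of the c-ring, Atp5g1, Atp5g2 and Atp5g3, were 4.43-fold, 4.42-fold and 3.39-fold higher (adjusted p = 0.019, 0.0169 and 0.0238; 19 of 22, 14 of 21 and 15 of 21 alternatives). Without fresh replicate 1 or fresh replicate 3, 9 members of the 5 complexes were called, and none of the ATP synthase was called without fresh replicate 3. With offsets for GC content and length, 23 were higher and 3 lower, at a median of 1.03. In cryopreservation-2 against cryopreservation-1, 13 were higher and the median was 1.08.

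None of the 13 protein-coding genes of the mitochondrial genome was called by edgeR, DESeq2 or limma (1 lower at an unadjusted edgeR p under 0.05), and their median log2 fold change was -0.41 (summed share 0.508% to 0.664% of fresh and 0.308% to 0.644% of straw-frozen counts). Among 27 genes of protein import, Timm17a and Timm10 were higher (2.83-fold and 4.91-fold, adjusted p = 0.0164 and 0.0236; 19 of 22 and 18 of 22 alternatives) and Tomm34 lower. Of 28 carriers of the inner membrane, edgeR called none higher and 3 lower, with a median of -0.36; none was higher by DESeq2 or limma or at an unadjusted p under 0.05, and DESeq2 called 6 lower. Slc25a16, a carrier linked to coenzyme A, read 62.6, 66.4 and 103 CPM in fresh and 26.8, 26.3 and 18.8 in straw-frozen libraries (3.22-fold lower, adjusted p = 0.0141) and was lost without fresh replicate 3 or cryopreservation-2 replicate 3 (adjusted p 0.0506 to 0.0664). Slc25a46 and the aspartate-glutamate carrier Slc25a13 were 2.17-fold and 2.14-fold lower (adjusted p = 0.0281 and 0.0284; 11 of 22 and 13 of 22 alternatives). No carrier was called without fresh replicate 3 or without cryopreservation-2 replicate 3, and none without the 3 libraries that stood apart.

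**Figure D5:**
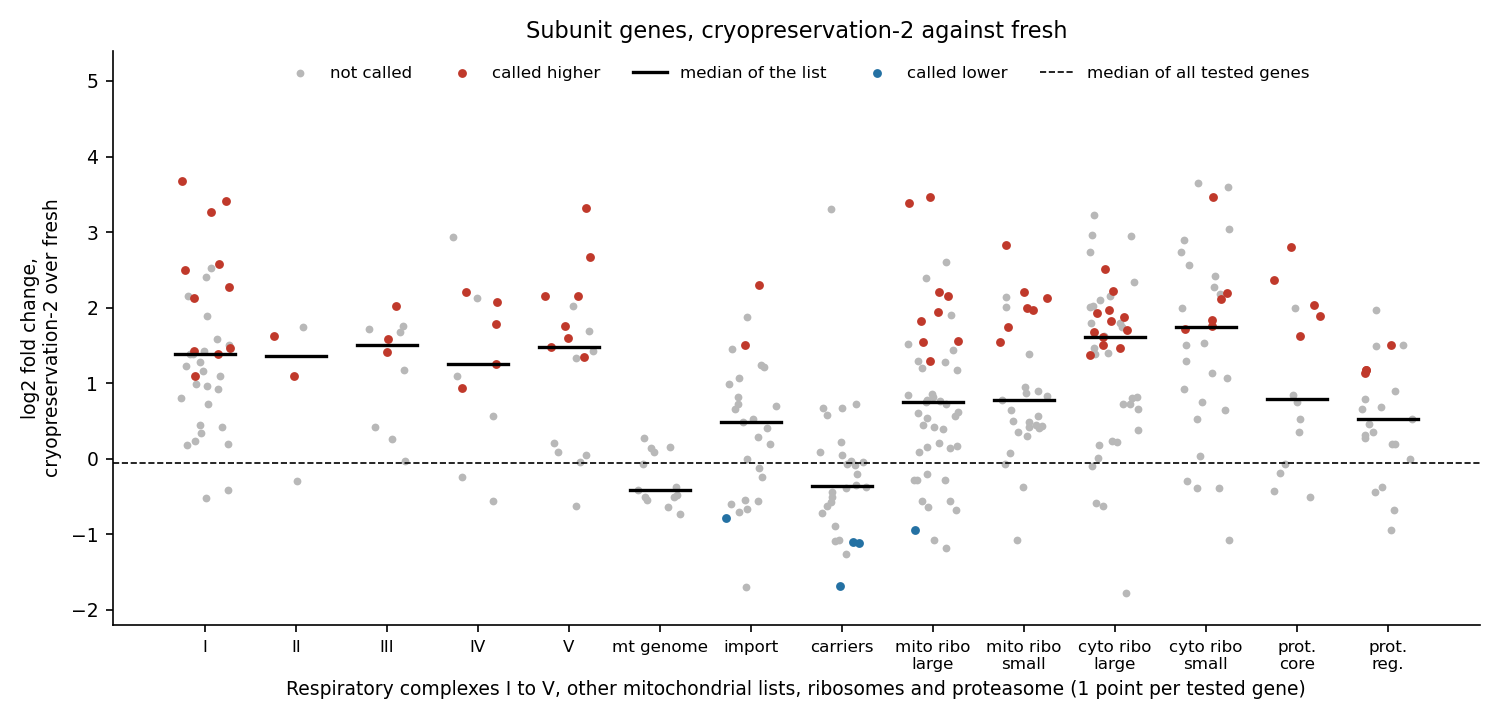
Log2 fold change of each tested member (cryopreservation-2 over fresh) for respiratory complexes I to V, the mitochondrial genome, mitochondrial import and carriers, mitochondrial and cytosolic ribosomal proteins, and the core and regulatory particles of the proteasome. Black bars are list medians and the dashed line is the median of all tested genes, -0.06; carriers and the mitochondrial genome have medians below it.

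Both ribosomes held many higher calls. Cytosolic ribosomal proteins were called higher in 18 of 72 tested members (25%) by edgeR and lower in none (none also by DESeq2, limma or at an unadjusted p under 0.05), with a median of 1.65. Rpl4, of the large subunit, read 37.2, 35.9 and 44.8 CPM in fresh and 133, 106 and 97.1 in straw-frozen libraries (2.85-fold, adjusted p = 0.00871), and Rpl11 rose 4.64-fold (adjusted p = 0.012). Reads of these genes can be shared with processed copies, so their levels are uncertain. Their counts together made 0.0489% to 0.0723% of fresh and 0.103% to 0.137% of straw-frozen libraries (exact permutation p = 0.1). The number of called members was 4 without fresh replicate 3 or without cryopreservation-2 replicate 3.

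Mitochondrial ribosomal proteins were called higher in 16 of 78 (20.5%) and lower in 1, with a median of 0.76. Mrps33 read 43.1, 50.1 and 37.2 CPM in fresh, 56.4, 62.5 and 37.2 in cryopreservation-1 and 176, 168 and 176 in cryopreservation-2 libraries. The last were almost equal and well above the rest (3.98-fold over fresh, adjusted p = 0.00482; 0.00983 against cryopreservation-1). Mrpl9 read 155, 196 and 282 CPM in fresh, 283, 311 and 316 in cryopreservation-1 and 856, 504 and 509 in straw-frozen libraries (2.95-fold, adjusted p = 0.0149). Mrps31 and Mrps28 of the small subunit rose 7.12-fold and 4.63-fold (adjusted p = 0.00611 and 0.00604). The exception was Mrpl3, 1.93-fold lower (adjusted p = 0.0254), lost without fresh replicate 1, 2 or 3, cryopreservation-1 replicate 1 or cryopreservation-2 replicate 1, 2 or 3 (adjusted p 0.0515 to 0.0854). The count of higher calls was 5 without fresh replicate 3 or without cryopreservation-2 replicate 2.

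The proteasome, which degrades ubiquitin-tagged proteins, was called higher in 9 of 37 members (24.3%) and lower in none by edgeR (3 lower at an unadjusted p under 0.05, none by DESeq2 or limma), with a median of 0.66. The core particle held 5 of 14. Proteasome genes together took 0.442% to 0.563% of fresh and 0.482% to 0.598% of straw-frozen counts, so their summed levels overlapped (exact permutation p = 0.3). Psmb2, a catalytic-ring subunit, read 31, 37 and 20.6 CPM in fresh, 35.7, 47.3 and 27.3 in cryopreservation-1 and 123, 129 and 111 in cryopreservation-2 libraries (4.1-fold over fresh, adjusted p = 0.00611; 0.0157 against cryopreservation-1). Psma6, of the outer ring, rose 3.71-fold (adjusted p = 0.00559), and both genes were stable. Psmb5, which carries the chymotrypsin-like activity, was 5.16-fold higher (adjusted p = 0.0149) and lost without fresh replicate 3 or cryopreservation-2 replicate 2 (adjusted p 0.0522 to 0.0575). In the regulatory particle and assembly factors 4 of 23 were higher, namely Psmc3, Psmc5, Psmd6 and the assembly chaperone Pomp. None of these 4 was called without fresh replicate 1 or without fresh replicate 3, where the whole list gave 3 calls. With offsets for GC content and length, 9 proteasome genes were higher and 5 lower.

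In ubiquitin conjugation 6 of 58 genes were called higher and none lower by edgeR (7 lower at an unadjusted p under 0.05, 5 by DESeq2 and none by limma; median 0.18). Beside Ubb and Ube2t, Nedd8, the ubiquitin-like activator of cullin ligases, rose from 7.42, 14 and 8.66 to 43.8, 50.3 and 39.6 CPM (4.45-fold, adjusted p = 0.00611). Ube2v2, a partner of the K63-chain enzyme, was 3.81-fold higher (adjusted p = 0.0125, lost without fresh replicate 3, adjusted p 0.0506). Ubiquitin, its activating enzymes and like proteins together took 0.193% to 0.272% of fresh, 0.25% to 0.316% of cryotop and 0.443% to 0.707% of straw-frozen counts, and the groups of straw-frozen and fresh libraries did not overlap (exact permutation p = 0.1). Of the 17 tested genes in that sum, only Nedd8 and Ubb were called by edgeR, 8 had a positive log2 fold change and the median was -0.08. The list gave 3 calls without fresh replicate 3.

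Short transcripts are frequent among these subunit lists, so their calls were set beside those of other short genes. Of the genes on the respiratory, ribosomal and proteasome lists, 220 lay in the shortest 2 quintiles of transcript length, and 29.5% of them were called higher, with a median log2 fold change of 1.37. Of 6789 other genes in the same quintiles, 4.39% were called higher, with a median of 0.25. The 46 longer genes on these lists were called higher in 15.2%, with a median of 0.59, against 1.79% and -0.19 for 10490 longer genes on none. These sets were not matched for level.

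Promoters of these lists were searched on both strands for 9 motifs. They were the ETS motif CCGGAAG, the NRF1 motif (GCGCA and GCGC with any 1 base between), the YY1 motif AAGATGGCG, the CCAAT box, the TATA box TATAAA, the cyclic AMP response element TGACGTCA, the SP motif GGGCGG, the E-box CACGTG and the NOBOX motif TAATTG. Each promoter ran from 250 bases before to 50 after the RefSeq start (GRCm38), and 11625 tested genes had one. The ETS motif was found in 24.9% of the 402 promoters of higher genes, 17.1% of the 281 of lower genes and 16.6% of all. By list it was in 43.6% of cytosolic and 34.8% of mitochondrial ribosomal protein promoters, 43.3% of proteasome and 23.9% of respiratory promoters. The NRF1 motif was found in 14.7%, 9.96% and 9.59% of higher, lower and all promoters, and by list in 26.9% of respiratory, 23.3% of proteasome, 18.8% of mitochondrial and 7.27% of cytosolic ribosomal protein promoters. The cyclic AMP response element was found in 5.22% of higher, 6.41% of lower and 3.04% of all promoters, so both called sets lay above all promoters. The SP motif was in 58%, 60.1% and 58% of higher, lower and all promoters, the CCAAT box in 41%, 38.1% and 39.3%, and the E-box in 9.95%, 9.61% and 9.63%. The TATA box was in 9.95%, 5.69% and 8.44%, the YY1 motif in 3.48%, 1.42% and 2.88%, and the NOBOX motif in 5.22%, 3.91% and 5.63%. Shares by list count called and uncalled members alike, no motif contains another, and binding was not measured. Differences in these shares were not tested. Promoters of 4 stable or nearly stable higher genes are given 5′ to 3′ on the gene's strand, with the motifs, as found on either strand, in capitals, NRF1 in Ndufs5 and Snrnp70 and ETS in Mrps33 and Med6.
Ndufs5 (chr4:123718137-123718436, minus strand): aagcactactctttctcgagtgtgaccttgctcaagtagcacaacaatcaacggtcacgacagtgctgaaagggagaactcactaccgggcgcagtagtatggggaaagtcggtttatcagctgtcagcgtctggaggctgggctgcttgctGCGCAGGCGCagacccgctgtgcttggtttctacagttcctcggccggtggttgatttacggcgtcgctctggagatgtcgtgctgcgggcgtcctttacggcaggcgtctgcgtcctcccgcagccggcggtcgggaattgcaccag
Snrnp70 (chr7:45395693-45395992, minus strand): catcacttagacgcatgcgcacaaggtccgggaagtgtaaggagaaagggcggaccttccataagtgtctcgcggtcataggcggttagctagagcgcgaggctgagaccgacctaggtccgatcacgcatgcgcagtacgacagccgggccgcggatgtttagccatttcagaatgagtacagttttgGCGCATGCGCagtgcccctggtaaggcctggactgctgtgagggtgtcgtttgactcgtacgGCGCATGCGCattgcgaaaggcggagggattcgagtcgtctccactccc
Mrps33 (chr6:39810887-39811186, minus strand): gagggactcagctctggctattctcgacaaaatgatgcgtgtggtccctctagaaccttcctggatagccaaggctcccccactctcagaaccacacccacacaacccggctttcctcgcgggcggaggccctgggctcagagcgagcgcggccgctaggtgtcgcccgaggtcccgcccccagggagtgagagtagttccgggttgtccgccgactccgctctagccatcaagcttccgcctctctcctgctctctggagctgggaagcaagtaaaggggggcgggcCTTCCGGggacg
Med6 (chr12:81594959-81595258, minus strand): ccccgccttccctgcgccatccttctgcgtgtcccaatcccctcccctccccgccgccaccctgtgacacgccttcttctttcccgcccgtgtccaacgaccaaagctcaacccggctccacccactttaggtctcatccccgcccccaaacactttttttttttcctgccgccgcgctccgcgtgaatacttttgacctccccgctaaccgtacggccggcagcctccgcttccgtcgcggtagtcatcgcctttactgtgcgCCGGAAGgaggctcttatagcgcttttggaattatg

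In RNA processing, 6 of 27 genes of the core splicing particles and Lsm rings were called higher (22.2%, median 0.25) and none lower by edgeR (1 lower at an unadjusted p under 0.05, by DESeq2 and by limma). Summed counts of these 27 overlapped, at 0.119% to 0.166% of fresh and 0.162% to 0.247% of straw-frozen counts (exact permutation p = 0.2). Snrnp40, of the U5 particle, read 29.4, 43.1 and 34.6 CPM in fresh, 57.8, 60.4 and 59.8 in cryopreservation-1 and 131, 157 and 103 in cryopreservation-2 libraries. Straw-frozen values lay above all others (3.65-fold over fresh, adjusted p = 0.00525; 0.0292 against cryopreservation-1). Beside Snrnp40 and Snrnp70, the called members were Snrpn and 3 proteins of the Lsm rings, and 2 of the 6 were called without fresh replicate 1, fresh replicate 3, cryopreservation-1 replicate 1, cryopreservation-2 replicate 2 or cryopreservation-2 replicate 3. Over the remaining splicing factors, 3 of 45 were higher. In RNA polymerase II, 3 of 12 subunits were higher, with a median of 0.69, and none of them without fresh replicate 1, fresh replicate 3, cryopreservation-2 replicate 2 or cryopreservation-2 replicate 3. The Mediator complex, which links activators to the polymerase, went both ways. Its subunits Med6, Med7, Med8 and Med28 were higher and Med15 lower, among 31 with a median of -0.26, and 2 were higher without fresh replicate 3 or cryopreservation-2 replicate 2. Med6 read 15.6, 33 and 20.3 CPM in fresh and 102, 89.6 and 96.3 in straw-frozen libraries (4.18-fold, adjusted p = 0.00611; 21 of 22 alternatives, lost without the 3 libraries that stood apart, adjusted p = 0.0545). Med15, a subunit of the tail, read 360, 352 and 283 CPM in fresh and 112, 197 and 163 in straw-frozen libraries (2.11-fold lower, adjusted p = 0.0277), and was lost without fresh replicate 1, 2 or 3, cryopreservation-1 replicate 1 or 2 or cryopreservation-2 replicate 3 (adjusted p 0.0509 to 0.094).

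Of 39 initiation factors, Eif1b, Eif3k, Eif2b3 and Eif4e2 were higher (10.3%) and the helicase Eif4a1 lower (2.56%), with a median log2 fold change of 0.19, and no initiation factor was called higher without fresh replicate 3. Eif4a1 read 470, 664 and 665 CPM in fresh and 286, 375 and 284 in straw-frozen libraries (1.9-fold lower, adjusted p = 0.0285), and was lost without fresh replicate 2 or 3, cryopreservation-1 replicate 1 or 2 or cryopreservation-2 replicate 1 or 3 (adjusted p 0.0563 to 0.111). Among 26 RNA-binding repressors and poly(A)-binding proteins, Pabpn1l was higher and Dazl lower. Pabpn1l, an oocyte poly(A)-binding protein that recruits the deadenylase for maternal RNA decay, read 789, 1690 and 1110 CPM in fresh, 1310, 1850 and 1830 in cryopreservation-1 and 2860, 3290 and 2780 in cryopreservation-2 libraries. It was 2.49-fold above fresh (adjusted p = 0.0249), not called against cryopreservation-1 (adjusted p = 0.118), and lost without fresh replicate 1 or 3 or cryopreservation-2 replicate 2 or 3 (adjusted p 0.0598 to 0.0907). In deadenylation and decay, 1 of 37 was higher and 2 lower, with a median of -0.30. Parn, a poly(A) nuclease, was 3.01-fold higher (adjusted p = 0.0213, lost without fresh replicate 2 or 3, adjusted p 0.055 to 0.0765), and Pan2 and Cnot9, of the other deadenylase complexes, were 1.73-fold and 1.77-fold lower (adjusted p = 0.0354 and 0.0449; 8 of 22 and 8 of 22 alternatives). This list took 1.33% to 1.37% of fresh and 1.1% to 1.12% of straw-frozen counts (exact permutation p = 0.1).

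Among chaperones, the constitutive heat shock cognate Hspa8 rose and was stable. It read 24.8, 24.6 and 32.2 CPM in fresh, 36.7, 40.6 and 28.4 in cryopreservation-1 and 211, 175 and 102 in cryopreservation-2 libraries (5.98-fold over fresh, adjusted p = 0.00438; 0.00983 against cryopreservation-1). The straw-frozen libraries spread widely, with replicate 1 the highest, and all lay above the other 6. Of 21 heat shock genes it was the only one called higher, and the transcription factor Hsf1 was lower at 170, 231 and 181 against 317, 377 and 393 CPM (1.87-fold, adjusted p = 0.0238), lost without fresh replicate 2 or 3 or cryopreservation-2 replicate 1 or 3 (adjusted p 0.0526 to 0.101). The stress-inducible Hspa1a had 0, 0 and 74 counts in fresh and 15, 66 and 30 in straw-frozen libraries, with an adjusted p of 0.828. Among 14 subunits of the chaperonin and prefoldin, which fold actin and tubulin, Pfdn5 and Cct3 were higher and the median was 0.76. Pfdn5 rose 2.22-fold (adjusted p = 0.011), with the call lost under offsets for GC content and length (adjusted p = 0.0681).

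Oxidant defence genes were called higher in 7 of 37 (18.9%, median 0.67) and lower in none by edgeR (none also by DESeq2 or at an unadjusted p under 0.05, 1 by limma). Sod1, the cytosolic superoxide dismutase, read 33.6, 39.6 and 43.5 CPM in fresh, 42.1, 56.5 and 34.6 in cryopreservation-1 and 165, 133 and 115 in cryopreservation-2 libraries. Cryotop values overlapped the fresh ones and straw-frozen values were above both (3.54-fold, adjusted p = 0.00611; 0.0128 against cryopreservation-1). Glrx5, a mitochondrial glutaredoxin of iron-sulfur cluster assembly, was 3.44-fold higher (adjusted p = 0.015) and lost without fresh replicate 1 or 3 (adjusted p 0.0532 to 0.0573). Txn1 and Prdx5, a thioredoxin and a peroxiredoxin, were 3.76-fold and 2.26-fold higher (adjusted p = 0.027 and 0.0275; 18 of 22 and 10 of 22 alternatives). Without fresh replicate 1 or without fresh replicate 3, 1 of the 7, Sod1, was called. In iron handling, 2 of 26 tested genes, Glrx5 and Ftl1, were called higher (7.69%) and 1, Slc3a2, lower (3.85%), with a median of 0.15. The list's summed counts overlapped, at 0.181% to 0.231% of fresh and 0.167% to 0.195% of straw-frozen counts (exact permutation p = 0.3). Ftl1, the ferritin light chain, was 3.18-fold higher (adjusted p = 0.0245), lost without fresh replicate 1 or 3 or cryopreservation-2 replicate 2 (adjusted p 0.059 to 0.0728). The heavy chain Fth1 and the transferrin receptor Tfrc were not called (adjusted p = 0.372 and 0.26).

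Stress signalling showed 3 higher and 1 lower call among 31 genes of the unfolded protein and integrated stress responses. Creld2, an endoplasmic reticulum chaperone, read 318, 510 and 455 CPM in fresh, 463, 589 and 469 in cryopreservation-1 and 1320, 973 and 1020 in cryopreservation-2 libraries. It was 2.59-fold above fresh (adjusted p = 0.0113; 0.0308 against cryopreservation-1; 20 of 22 alternatives, lost without the 3 libraries that stood apart, adjusted p = 0.0588). Atf3, a stress-induced transcription factor, had no counts in fresh, 37, 61 and 12 in cryopreservation-1 and 28, 67 and 20 in cryopreservation-2 libraries, so both frozen groups carried it (at least 50.7-fold over fresh, adjusted p = 0.0238; 10 of 19 alternatives). Of 15 immediate early genes, Klf6 alone was called, 3.78-fold lower (adjusted p = 0.0208, lost without fresh replicate 2 or 3 or cryopreservation-2 replicate 3, adjusted p 0.0501 to 0.073). None of 9 cold-inducible genes was called by edgeR, DESeq2 or limma (1 lower at an unadjusted edgeR p under 0.05), and Cirbp, the best known of them, read 20.2, 27.8 and 20.8 CPM in fresh and 26.6, 25.3 and 32.9 in straw-frozen libraries (adjusted p = 0.485), with overlapping groups.

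Of the water channels, 4 of 10 were tested and Aqp9, which passes water, glycerol and other small solutes, was called. It read 66.1, 61.5 and 85.3 CPM in fresh, 59.2, 58.5 and 73.4 in cryopreservation-1 and 25.4, 30.2 and 28.4 in cryopreservation-2 libraries, with the straw-frozen values below all others (2.54-fold lower than fresh, log2 -1.34, SE 0.21, adjusted p = 0.00969; 0.0218 against cryopreservation-1; 21 of 22 alternatives, lost without the 3 libraries that stood apart, adjusted p = 0.0588). Aqp3 had 0, 16 and 0 counts in fresh, 16, 0 and 0 in cryotop and none in straw-frozen libraries and was below the filter on low counts. Of 23 genes of volume and ion control, none was called by edgeR, 1 was higher and 6 lower at an unadjusted p under 0.05, and DESeq2 called 1 higher and 2 lower and limma 1 higher. Of the 23, 3 had a positive log2 fold change, and the median was -0.65.

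Tubulins, the building blocks of the spindle, were called higher in 6 of 13 tested members (46.2%, median 1.25) and lower in none by edgeR (1 lower at an unadjusted p under 0.05, none by DESeq2 or limma). Their summed counts overlapped, at 0.0806% to 0.109% of fresh and 0.0961% to 0.166% of straw-frozen counts (exact permutation p = 0.2). Tubb2a rose from 23.3, 27 and 20.9 to 80.8, 122 and 125 CPM (4.61-fold, adjusted p = 0.00611) and Tuba3a 3.15-fold (adjusted p = 0.00918, 21 of 22 alternatives). Tubulin genes share reads with close copies, so single values are uncertain, and 2 members were called without fresh replicate 3 or without cryopreservation-2 replicate 3. In the dynein motor and its dynactin partner 4 of 20 were higher, and 2 without fresh replicate 1, cryopreservation-1 replicate 1 or 2, or cryopreservation-2 replicate 2 or 3. Dynll1, a light chain, read 9.01, 7.81 and 3.92 CPM in fresh and 24.3, 59.2 and 37.2 in straw-frozen libraries (5.82-fold, adjusted p = 0.00997). Dync1i1, an intermediate chain, had 324, 89 and 204 counts in straw-frozen libraries and none in the other 6 (adjusted p = 0.0119, 18 of 19 alternatives). Of 40 actin genes, 5 were higher and 1 lower, and 2 were higher without fresh replicate 1 or cryopreservation-2 replicate 2 or 3. Tmsb10, a thymosin that holds actin monomers, rose from 3.93, 5.13 and 3.17 to 21.4, 25.8 and 18.7 CPM (5.38-fold, adjusted p = 0.0109), and Arpc3, of the Arp2/3 nucleator, rose 2.6-fold (adjusted p = 0.00916, lost under offsets for GC content and length, adjusted p = 0.0536).

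Meiotic control held 4 higher calls (3.51%) and 2 lower (1.75%) among 114 tested genes, with a median of -0.16. In the maturation promoting factor and its arrest, Cdc27 was higher and Cdk2 and Ccna2 lower, among 41 tested with a median of -0.19. At an unadjusted p under 0.05, edgeR placed 4 of these 41 higher and 13 lower. DESeq2 called 2 higher and 9 lower, and limma 1 and 2. Together the 41 took 1.35% to 1.59% of fresh and 1.13% to 1.3% of straw-frozen counts (exact permutation p = 0.1). Cdk2 read 16.7, 12.8 and 10.6 CPM in fresh, 22.5, 18.5 and 12.9 in cryopreservation-1 and 2.87, 3.92 and 3.28 in cryopreservation-2 libraries, with no overlap between straw-frozen and any other (3.98-fold lower than fresh, adjusted p = 0.00918; 0.00983 against cryopreservation-1). Ccna2, cyclin A2 and a partner of Cdk2, read 697, 707 and 636 CPM in fresh and 363, 377 and 408 in straw-frozen libraries (1.78-fold lower, adjusted p = 0.0213), and was lost without fresh replicate 1 or 3 or cryopreservation-2 replicate 2 or 3 (adjusted p 0.0572 to 0.0696). With offsets for GC content and length, 9 of these 41 were lower. Birc5, survivin of the chromosomal passenger complex and also an inhibitor of apoptosis, read 91.2, 113 and 99.7 CPM in fresh and 267, 288 and 287 in straw-frozen libraries (2.77-fold higher, adjusted p = 0.00916; 21 of 22 alternatives, lost without the 3 libraries that stood apart, adjusted p = 0.0586). It was the only call among 29 apoptosis genes. None of 19 cohesin genes was called by edgeR (3 higher and 3 lower at an unadjusted p under 0.05; 1 and 3 by DESeq2; 1 and 0 by limma). None of 16 genes of arrest by cyclic AMP was called by any of these tools, with 3 lower at an unadjusted edgeR p under 0.05.

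Of 33 genes of calcium signalling and egg activation, the calmodulin gene Calm2 was the only call. Calm2 read 20.2, 39.1 and 19.7 CPM in fresh and 146, 81.2 and 115 in straw-frozen libraries (4.34-fold higher, adjusted p = 0.00916; 21 of 22 alternatives, lost without the 3 libraries that stood apart, adjusted p = 0.0619). In glycolysis and the citric acid cycle, Pdhb of pyruvate dehydrogenase and the fumarase Fh1 were 2.49-fold and 2.59-fold higher beside Ldhb, among 33 (adjusted p = 0.00916 and 0.0108). Each lost its call in 1 of 22 alternatives, that without the 3 libraries that stood apart (adjusted p = 0.0504 and 0.0586). In cholesterol synthesis and its control, Insig1, which holds back the sterol sensor, read 249, 253 and 266 CPM in fresh and 143, 144 and 102 in straw-frozen libraries (1.98-fold lower, adjusted p = 0.0184), and was lost without fresh replicate 3 or cryopreservation-2 replicate 3 (adjusted p 0.0616 to 0.063).

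In secretion and traffic, Spcs1, a subunit of the signal peptidase, rose 6.48-fold (adjusted p = 0.0106). Stx7, a syntaxin of late endosomes, read 64.1, 62.6 and 50 CPM in fresh and 28, 23.4 and 27 in straw-frozen libraries (2.25-fold lower, adjusted p = 0.012; adjusted p just under the threshold, 0.05, without cryopreservation-2 replicate 2). Of 38 Rab GTPases, Rab10 and Rab6a were called, both lower, and neither kept its call in all 9 fits that left out a library. In the small RNA pathway, Fkbp6, an HSP90 cochaperone of piRNA loading, read 0.906, 0.777 and 0.451 CPM in fresh, 2.7, 3.39 and 3.97 in cryopreservation-1 and 14.6, 9.03 and 8.6 in cryopreservation-2 libraries. The 3 groups did not overlap with each other, and straw-frozen values were 15.1-fold above fresh (adjusted p = 0.00348; 0.0472 against cryopreservation-1).

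In chromatin, Arid5b, Chd2, Kdm1b and Kdm4a were lower and Smarca5, Sirt7, H3f3a and Anp32a higher among 152 genes, with a median of -0.06. Smarca5, the ISWI ATPase, read 175, 98.2 and 87.7 CPM in fresh, 43.3, 57.9 and 45.4 in cryopreservation-1 and 335, 264 and 235 in cryopreservation-2 libraries. The cryotop values were below all fresh ones and the straw-frozen values above them (2.31-fold over fresh, adjusted p = 0.0377; 0.00783 against cryopreservation-1), but the call was lost without fresh replicate 2 or 3, cryopreservation-1 replicate 1, 2 or 3 or cryopreservation-2 replicate 1, 2 or 3 (adjusted p 0.0583 to 0.12). Kdm1b, the histone demethylase that oocytes need for maternal imprints, was 2.13-fold lower (adjusted p = 0.019), lost without fresh replicate 3 or cryopreservation-2 replicate 2 or 3 (adjusted p 0.0664 to 0.0696). None of 17 genes of DNA methylation was called by edgeR (2 higher and 2 lower at an unadjusted p under 0.05; 1 and 1 by DESeq2; 2 and 0 by limma).

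Oocyte identity genes changed in both directions, with 3 higher, 3 lower and a median of 0.02 among 40. Uchl1, a ubiquitin hydrolase abundant in oocytes, read 185, 217 and 167 CPM in fresh and 424, 535 and 510 in straw-frozen libraries (2.58-fold higher, adjusted p = 0.00908; 0.0405 against cryopreservation-1). Padi6 and Tle6, of the cytoplasmic lattices and the subcortical maternal complex that early embryos need, were 2.15-fold and 2.11-fold higher (adjusted p = 0.0213 and 0.0443; 17 of 22 and 11 of 22 alternatives). Padi6 was lost without fresh replicate 1, 2 or 3 or cryopreservation-2 replicate 2 (adjusted p 0.0558 to 0.0676), and Tle6 was lost without fresh replicate 1, 2 or 3, cryopreservation-1 replicate 1, 2 or 3 or cryopreservation-2 replicate 2 or 3 (adjusted p 0.0609 to 0.138). The other members of that complex were not called, and Khdc3, Ooep and Nlrp5 had log2 fold changes of 1.58, 1.40 and 0.64 (adjusted p = 0.0506, 0.126 and 0.32), with -0.98 for Zbed3 (adjusted p = 0.0786). The growth factors Gdf9 and Bmp15 and the zona pellucida genes Zp1, Zp2 and Zp3 were not called by edgeR. Of the zona pellucida genes, 2 were higher at an unadjusted edgeR p under 0.05, 1 by DESeq2 and 1 by limma. Bmp15 read 931, 977 and 1060 CPM in fresh and 1170, 977 and 702 in straw-frozen libraries, with overlapping groups. In the oogenesin, Tcl1 and Obox clusters 2 of 15 tested members had a positive log2 fold change, the median was -0.55, and Oog1 was the only call. With offsets for GC content and length, 7 of these 15 were lower.

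Markers of other cell types were compared next. Cumulus and granulosa cell markers, 15 of 23 in the table, took 0.0952% to 0.126% of fresh and 0.113% to 0.177% of straw-frozen counts, most of it from Serpine2. Serpine2 read 862, 1360 and 1200 CPM in fresh and 1630, 1480 and 925 in straw-frozen libraries. Cyp19a1, the aromatase of granulosa cells, read 65.3, 68.3 and 61.6 CPM in fresh and 72, 41.3 and 27.9 in straw-frozen libraries, and in both genes the groups overlapped. None of 11 tested was called by edgeR (1 lower at an unadjusted p under 0.05 and by DESeq2, none by limma), and 1 of the 15 was at 0 in every fresh library and 2 in every straw-frozen one. Of 12 stromal, endothelial and epithelial markers in the table, 10 were tested, and 2 of these (20%), Krt8 and Myh11, were called higher. The endothelial marker Pecam1 read 86.7, 91.9 and 152 CPM in fresh and 155, 97.1 and 60.6 in straw-frozen libraries, with overlapping groups. Krt8 read 0, 0.0575 and 0 CPM in fresh, 2.66, 1.24 and 1.97 in cryopreservation-1 and 1.07, 2.54 and 0.6 in cryopreservation-2 libraries (adjusted p = 0.026, 13 of 19 alternatives). Immune and blood markers, 16 of 17 in the table, took 0.000899% to 0.00126% of fresh and 0.000488% to 0.00164% of straw-frozen counts. Of the 3 tested, none was called by edgeR or limma or passed an unadjusted edgeR p under 0.05, and DESeq2 called 1 higher. Of the 16 in the table, 12 were at 0 in every fresh library and 2 in every straw-frozen one. For 11 of them (68.8%), counts occurred in straw-frozen libraries and in none of the other 6, against 1642 of 26358 genes in the table (6.23%). Every gene in the table has at least 1 count, so these 11 are in it only through the straw-frozen libraries. The shares are therefore a description and not a test. Counts only in fresh libraries occurred for 1134 genes and 1 of the 16 markers, and only in cryopreservation-1 for 1526 genes and 1 marker. The counts of the 11 were few, with sums of 103, 141 and 15 over replicates 1 to 3, and included S100a8 (33, 31 and 2), C1qc (13, 46 and 0) and the haemoglobin genes Hba-a1 (19, 7 and 3) and Hba-a2 (15, 11 and 6), while the pan-leukocyte marker Ptprc had 0, 7 and 0. Their part in the differences above was not tested. Markers of embryonic genome activation, 13 of 17 in the table, had no call by edgeR or DESeq2 among 10 tested (1 higher at an unadjusted edgeR p under 0.05 and by limma).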

How the data were processed

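Per the labels, RNA was extracted with Trizol, selected with oligo(dT) and made into dUTP libraries amplified by PCR without molecular identifiers. Per the submitters' processing notes, the tools were cutadapt 1.9, HISAT2 2.0.4 and StringTie 1.3.4d, with the GRCm38 genome. How reads were counted, on which strand and against which annotation is not given in the sources used here, so overlapping and antisense genes cannot be told apart. The authors deposited 1 table of 26358 genes, with raw read counts and length-scaled FPKM for each library.

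Counts were tested with edgeR 4.0.16 (R 4.3.3), by the quasi-likelihood test after filterByExpr (minimum count 10, total 15) and TMM scaling, with all 9 libraries in 1 fit, which left 17545 genes. Called means a Benjamini-Hochberg adjusted p under 0.05, with no minimum fold. Standard errors were computed as the log2 fold change divided by the square root of F. The common biological coefficient of variation was 0.662. Alternatives were other scalings and filters, 2 groups alone, a replicate block, smooth offsets for GC content and length (mgcv 1.9.3), thinning to 49337232 counts, DESeq2 1.42.0, limma 3.58.1 on log2(FPKM + 1) or log2(FPKM + 0.1) for genes of at least 1 FPKM, and leaving out each library. The fit without the 3 libraries that stood apart was added after seeing the data.

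Transcript features came from GENCODE M21, which matched 26286 gene identifiers, and promoters from RefSeq. The edgeR test was tried in 3 simulated runs of cryopreservation-2 against fresh, each with 200 changed genes of at least 5 CPM. It called 79% of 4-fold and 9% of 2-fold changes, none in the wrong direction, with a mean of 1.33 false calls. These runs changed fewer genes than were called here and drew each gene on its own, so their shares may not hold for the real libraries. Most 2-fold changes were missed in the runs, so a gene that was not called is not shown to be unchanged. Named genes were, among called genes whose groups did not overlap and with at least 20 CPM in the higher group, the 12 of largest fold each way and the 8 of highest level each way. To these were added up to 4 called members of each list and direction with the smallest p, the 5 of highest level each way with counts in 1 group, all markers, and Hspa1a, Aqp3, Gpx4, Tfrc, Fth1 and Cirbp. Members and lists were chosen with earlier results of these data known.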

Additional observations from a re-analysis of the deposited data

How the results depend on the processing

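Of the 944 calls of cryopreservation-2 against fresh, the count moved most with the tool and with single libraries. DESeq2 gave 2730 (53.9% higher), limma 1688 (74% higher) with a pseudocount of 1 and 1597 with 0.1, and the 2 groups alone 429 (82.1% higher), against 59.1% higher in the fit reported. The replicate block gave 500 calls (70.4% higher) and 230 against cryopreservation-1. Deviations of same-numbered libraries 1 to 3 from their group means correlated at -0.229, 0.166 and -0.302 between fresh and cryopreservation-2 and at -0.449, 0.162 and -0.324 between the frozen groups, so in the contrasts reported the numbers were not taken as pairs. Between fresh and cryopreservation-1 they correlated at 0.272, 0.404 and 0.473, each library best with its own number, which is a hint from the data and not from the labels. Across different numbers, cryopreservation-2 replicate 1 correlated at 0.352 with fresh replicate 3 and 0.463 with cryopreservation-1 replicate 3. Cryopreservation-2 replicate 3 correlated at 0.285 with fresh replicate 1 and 0.349 with cryopreservation-1 replicate 1. Libraries may thus share variation across groups in an order other than their numbers, and the replicate block follows the numbers. The source of this was not tested. Leaving out 1 library gave 231 to 786 calls, and leaving out the 3 libraries that stood apart gave 194 (75.3% higher). The contrast with cryopreservation-1, with 483 calls, gave 842 at a mean of at least 5 CPM, 869 with offsets for GC content and length, 1271 and 1077 by limma at the pseudocounts of 1 and 0.1, and 2137 by DESeq2. It gave 15 to 480 when 1 library was left out. Without the 3 libraries it gave 0 by edgeR, with 3028 genes at an unadjusted p under 0.05. The cause was not tested. RLE, upper-quartile and thinned settings kept both counts within 1.5 times.

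Of 196 named called genes, none reversed under any alternative. DESeq2 kept 196, thinning 193 and RLE scaling 188, while 81 were kept without fresh replicate 3 and 69 without the 3 libraries. Summed shares, as straw-frozen minus fresh percentage points, changed sign for oocyte identity genes (-1.28 to 0.0403 when 1 library was left out, the last without cryopreservation-2 replicate 1) and for cumulus and granulosa markers (-0.00152 without the highest member). For immune and blood markers they were -7.84e-06 without fresh replicate 3, -0.00015 without cryopreservation-2 replicate 2 and -2.04e-05 without cryopreservation-2 replicate 3, in a range of -0.00015 to 0.000424. With 3 libraries a group, the exact permutation test of a single value cannot go below p = 0.1.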
